A study of Mus musculus with 2 samples.

Results

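The genes described here are 4 members of the Ly6 family of surface antigens, Ly6a, Ly6c1, Ly6d and Ly6e, among 15385 genes measured on both arrays of a mouse liver study. They were selected on measured values, because their signals were higher on the Drp1 knockout array than on the wild type array. Their probes are the non-control probes whose gene name in the scanner files is one of these symbols, which gave 5 of 39429 probes: 2 for Ly6c1 and 1 for each of the others. All 5 probes were well above background on both arrays, so no member was lost to the filter on dim probes. The direction of the members follows from how they were chosen, and their differences are given as a description with no test.

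The study compared livers in which Drp1, the mitochondrial fission protein encoded by Dnm1l, had been disrupted with wild type livers. There were 2 samples, 1 knockout and 1 wild type, both from male C57BL/6J mice. Both samples came after 24 weeks on a lard high-fat diet, which the design text gives as 24% fat with 45% of energy from fat, started at 4 weeks of age. The design text describes both a 17-hour fast and a 4-hour refeeding, and the labels do not say which applied to these livers. Neither the promoter that drove the deletion, nor the deleted part of Dnm1l, nor whether RNA from several mice was pooled, is given in the labels. With 1 array in each group there are no replicates, so no difference between groups was tested and no p-value can be given.

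Ly6 proteins are small, disulphide-rich proteins with the three-finger fold shared with the urokinase receptor. Most are held on the outer face of the cell membrane by a glycosylphosphatidylinositol (GPI) anchor, a lipid tail attached in the endoplasmic reticulum, and several are used as markers of blood cell subsets. In the mouse many of the genes lie side by side on chromosome 15, and some of them, Ly6a and Ly6e among them, are known to respond to interferon.

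Each signal below is read by a single 60-base probe, so the probe sequences show which transcript stretch was measured. The first 30 bases of each probe are printed from the scanner files, 5′ to 3′, with no base singled out in capitals.
Ly6a: tatgagttatagaagctccaaggtgggagt
Ly6c1, probe starting at transcript base 184: agcagttacctgccgcgcctctgatggatt
Ly6c1, probe starting at transcript base 732: tattatagtatcaccatccacacataagta
Ly6d: caggacaggaagatgtggcttgtgtcccag
Ly6e: tatcattgtacccaccttgtactctgttca
In the coordinates of the files (mm9), the Ly6a probe lies at chr15:74825553-74825612 on the minus strand. The Ly6c1 probes lie on the minus strand at chr15:74877785-74877844 and chr15:74875495-74875554. The Ly6d probe lies at chr15:74592551-74592610 on the minus strand, and the Ly6e probe at chr15:74789592-74789651 on the plus strand. Exon and UTR annotation of these positions was not used here. None of the 5 probes shares a run of 16 or more bases with another probe on the array, and the longest run shared with a probe of another family gene is 8 to 9 bases. The probes therefore differ from each other in sequence although the genes are relatives. Probes were compared with probes only, and the close relative Ly6c2 has no probe. Whether the Ly6c1 probes also read Ly6c2 transcripts was not tested.

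Signals are given first as the processed signal of the scanner program, in intensity units. A level is that signal divided by the 75th percentile of the array, which was 461 in the wild type and 722 in the knockout. Differences are knockout minus wild type on the log2 scale of the levels, and 2-fold was the size used to count genes as higher or lower.

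Ly6d had the largest difference of the 4 genes. Its product, ThB, marks lymphoid progenitors committed to the B lineage and is also made by squamous epithelia. The Ly6d signal was 1084 in the wild type and 21859 in the knockout liver, which are levels of 2.35 and 30.3. The level was 12.9-fold higher in the knockout liver, a log2 difference of 3.69. Counted from the largest positive difference, Ly6d ranked 8 of 15385 measured genes.

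Ly6a encodes Sca-1, the antigen used to isolate mouse blood stem and progenitor cells, which is also found on endothelial and mesenchymal cells. Its signal was 714 in the wild type and 5248 in the knockout liver, or levels of 1.55 and 7.27. The knockout level was 4.69-fold higher, with a log2 difference of 2.23 and rank 42.

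Ly6c1 encodes one of the Ly-6C antigens, carried by inflammatory monocytes, some T cells and endothelial cells. The probe starting at transcript base 732 gave signals of 3195 and 10783, levels of 6.93 and 14.9, and was 2.15-fold higher in the knockout. The probe starting at base 184 gave signals of 79.7 and 295, levels of 0.173 and 0.409, and was 2.36-fold higher. The latter was dim: its raw spot mean was 2.60 times the local background on the wild type array and 5.79 times on the knockout array. The probes lie 2290 bases apart on the chromosome and their log2 differences, 1.24 and 1.11, were 0.13 apart, less than the SD from spot error given below. Averaged over both probes, Ly6c1 was 2.26-fold higher, a log2 difference of 1.17 and rank 299.

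Ly6e encodes an antigen of immature thymocytes that is made in many tissues, the liver included. Its signal was 10956 in the wild type and 35099 in the knockout liver, levels of 23.8 and 48.6. The knockout level was 2.04-fold higher, a log2 difference of 1.03 and rank 417. Ly6e lay just past the 2-fold line.

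**Figure D1:**
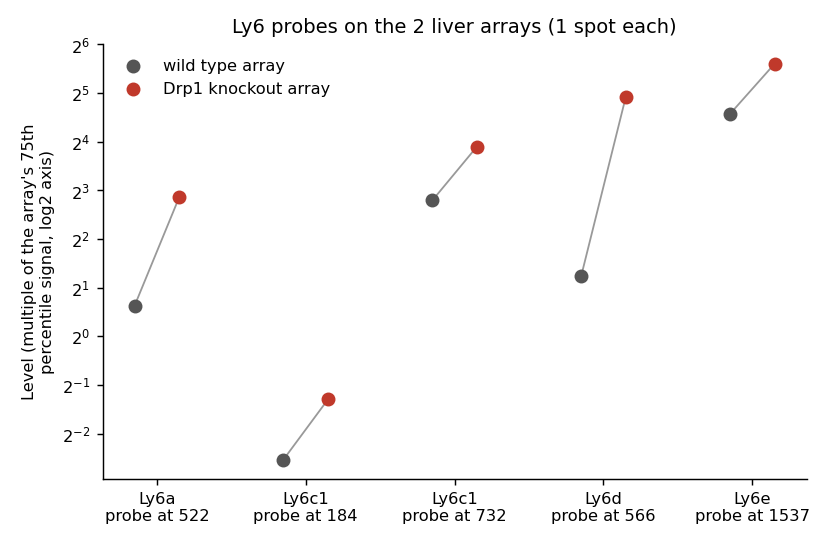
Level of each member probe, as a multiple of the array's 75th percentile on a log2 axis, with 1 point for the wild type array and 1 for the knockout array. Every line slopes up to the knockout array, most for Ly6d (2.35 to 30.3) and least for Ly6e (23.8 to 48.6), and the dim Ly6c1 probe moves alongside the bright one.

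All 4 members passed 2-fold in the knockout liver and 2 of them, Ly6a and Ly6d, at least 4-fold. Of all 15385 measured genes, 447 (2.91%) passed 2-fold upwards in the knockout and 560 (3.64%) passed it downwards, and 69 (0.448%) passed 4-fold upwards. Since the members were chosen for this contrast, their count is not read against these shares. The median log2 difference was 1.70 over the members and −0.11 over all measured genes. In bulk tissue, more cells of a type that makes a transcript and more of it per cell cannot be told apart.

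Technical spread could be measured within an array only. Over 241 probes printed in several copies, the SD between spots of a probe was 0.11 for the wild type and 0.08 for the knockout array, on the log2 scale, which gives an SD of 0.14 for a difference between 2 single spots. Each member probe was 1 spot, none was marked as an outlier and none was saturated. The members' differences were 7.34 (Ly6e), 8.35 (Ly6c1), 15.9 (Ly6a) and 26.2 (Ly6d) times that SD, which covers measuring error on an array and not the variation between mice.

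The members were also set beside genes of like brightness, since the median difference was not the same for dim and bright genes. With the measured genes divided into 10 groups by mean level, the groups' medians ran from −0.30 to 0.02. Ly6e fell in the brightest group, which had the lowest median. In it 9 of 1539 genes were at least 2-fold higher and Ly6e was the last of them, at rank 9. Ly6d fell in the next group, where 23 of 1538 genes were at least 2-fold higher and Ly6d ranked 2. Ly6a ranked 5 in its group of 1539 genes, where 33 were at least 2-fold higher. Ly6c1 ranked 21 in its group of 1538, where 32 were. That group follows from the mean of the 2 Ly6c1 probes, whose wild type levels were 40.1-fold apart. It is not the brightness of either probe alone. The order of the members by difference, Ly6d, Ly6a, Ly6c1 and Ly6e, is thus not their order by brightness group.

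**Figure D2:**
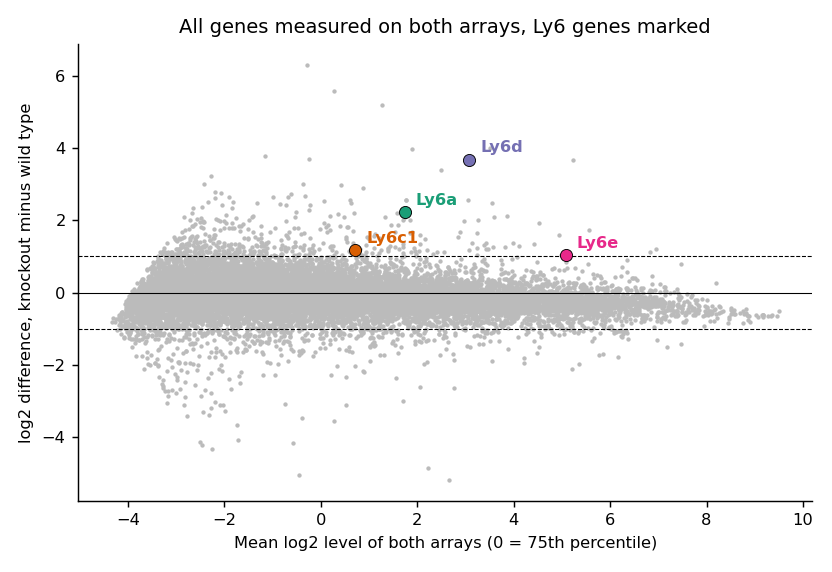
Log2 difference, knockout minus wild type, of every measured gene against its mean log2 level on the 2 arrays, with the members in colour and dashed lines at 2-fold. The cloud of genes falls slightly below 0 at the bright end, and all 4 members lie above the upper line, Ly6d farthest (3.69) and Ly6e closest to it (1.03).

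The size of the members' differences was recomputed with other normalizations and filters, 9 in all. Ly6d ranged from 3.64 to 4.47 on the log2 scale, Ly6a from 2.16 to 3.01, Ly6c1 from 0.94 to 1.96 and Ly6e from 1.03 to 1.81. Every value was above 0. Ly6c1 was the only member to fall under 2-fold, at 1.92-fold (0.94 on the log2 scale) with the normexp background correction. Ly6e was higher (1.31) with quantile or loess normalization. The upper ends of all 4 ranges come from scaling to the E1A spike-in spots, which were added in known amount: on that scale the median of all measured genes shifted up by 0.78, and 97.1% of the genes at least 2-fold apart were higher in the knockout, against 44.4% with the 75th percentile. Measured from the median of all genes, the differences under the 2 scalings are the same by construction: 3.80 for Ly6d, 2.34 for Ly6a, 1.28 for Ly6c1 and 1.14 for Ly6e.

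**Figure D3:**
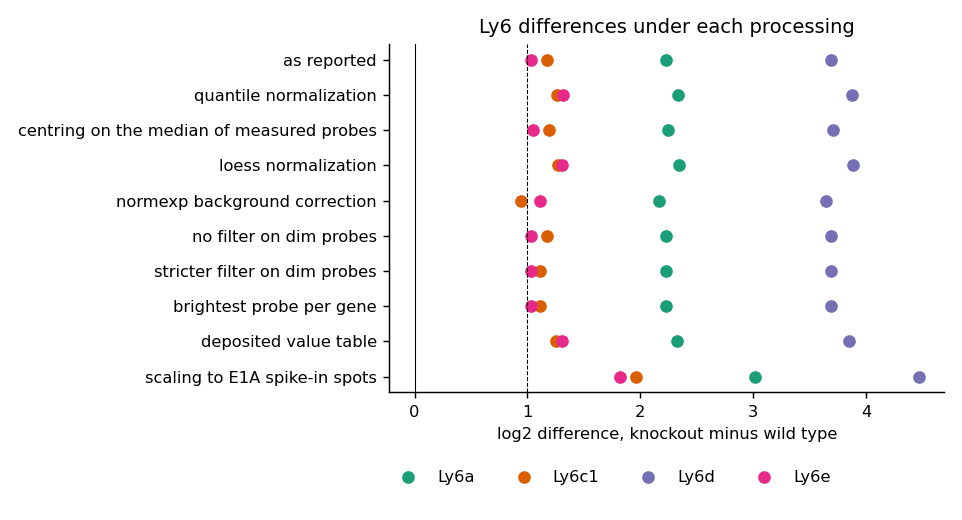
Log2 difference, knockout minus wild type, of each member under the values reported and the 9 alternatives, with a dashed line at 2-fold. Ly6d and Ly6a keep clear of the line under every setting, Ly6c1 falls just under it with normexp (0.94), and scaling to the E1A spots moves all 4 up together.

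The other genes of the family were listed beside the members. Of 38 listed genes of the Ly6 and urokinase receptor family, 36 had a probe and 17 were measured on both arrays. The list was drawn up with earlier results of these data known. It leaves out the relatives Slurp2, Ly6m and Ly6a2, which have probes in the same stretch of chromosome 15. Slurp2 was measured on both arrays, with a log2 difference of −0.45. Among the 13 listed genes measured on both arrays that are no members, 0 passed 2-fold upwards and 0 downwards, 5 were above 0 and 8 below, and the median was −0.31. Over all measured genes, 2.91% passed 2-fold upwards and 3.64% downwards. With scaling to the E1A spots all 13 were above 0, 3 of them at least 2-fold, and the median was 0.48. On that scale 3536 of all 15385 genes were at least 2-fold higher, and the median of all genes was 0.67. With no filter on dim probes, 4 of 32 genes that are no members passed 2-fold upwards and 0 downwards. Of all 30152 genes without that filter, 1574 passed upwards and 1766 downwards.

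The largest positive difference among these relatives was that of Plaur, the urokinase receptor, 1.88-fold higher. Lynx1, a modulator of nicotinic acetylcholine receptors, was 1.63-fold higher (log2 difference 0.71). Plaur and Lynx1 were dim in the wild type, each with a log2 level of −2.78. With normexp the highest log2 difference among the 13 relatives was 0.42. The 2 probes named for Lypd5 lie on opposite strands, and whether both read Lypd5 transcripts was not tested. The probe measured on both arrays had a log2 difference of 0.29. The other was well above background on the knockout array only and at least 2.95-fold higher there. Such a bound divides the knockout level by the dim probe's wild type level, or by the lowest wild type level above background if that is greater.

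Ly6g, the neutrophil antigen and a close relative of Ly6c1, differed by 0.08. Its probe shares a run of 16 or more bases with that of an unnamed transcript nearby (ENSMUST00000089689), which differed by 0.38, so their signals may not be separate. Gpihbp1, which carries lipoprotein lipase across capillary walls, was 1.46-fold lower (log2 difference −0.55). The complement inhibitors Cd59a and Cd59b differed by −0.37 and −0.51. Lypd6 was lowest at −0.61, and Gml2 (−0.49), Ly6g6e (−0.38), Ly6g6c (−0.31) and Spaca4 (−0.24) were also below 0. Lypd2 was close to 0 at 0.05.

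A further 5 listed family genes stood above background in the knockout liver alone. The bounds for them were small: Ly6k was at least 1.27-fold higher, Ly6g6d at least 1.13-fold and Ly6i, the neighbour of Ly6a, at least 1.07-fold, and no bound above 1 could be given for Psca or Ly6g5b. For no listed family gene was this so in the wild type liver alone, and 14, Slurp1, Ly6h and Ly6f among them, were not well above background on either array. Ly6c2 and Ly6l had no probe that was named for them.

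The members lie in one stretch of chromosome 15 but do not follow each other without a break. From the Ly6d probe, the Ly6e probe is 197 kb away, the Ly6a probe 233 kb, and the Ly6c1 probes 283 and 285 kb. The window from Psca to Gpihbp1 (chr15:74546879-75428543, mm9) spans 882 kb and holds 39 probes, 20 of them not well above background on either array. Apart from the members, 9 genes in it were measured on both arrays, and 0 of these were at least 2-fold apart in either direction. Over all measured genes, 2.91% were at least 2-fold higher and 3.64% lower. The 9 genes ran from −0.64 to 0.71 with a median of 0.05, and with normexp from −0.56 to 0.22. The probe of an unnamed transcript between Ly6i and Ly6a was above background on the wild type array only. By its bound it was at least 18.5-fold lower on the knockout array. Under scaling to the E1A spots 2 of the 9 were at least 2-fold higher, against 3536 of all 15385 genes. The nearest measured neighbours of Ly6d on either side, Lynx1 and Gml2, differed by 0.71 and −0.49, against 3.69 for Ly6d.

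**Figure D4:**
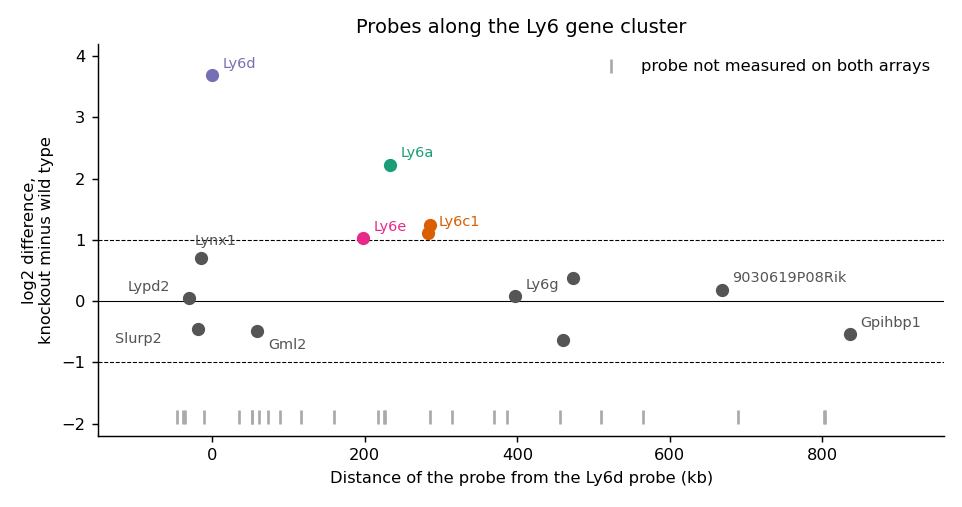
Log2 difference, knockout minus wild type, of the probes along the Ly6 gene cluster against distance from the Ly6d probe in kb, with members in colour, other measured probes in grey and ticks for probes not measured on both arrays. The member probes stand above the 2-fold line, with non-member probes measured on both arrays between −0.64 and 0.71 on both sides of them.

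The promoter was looked at because the members are neighbours with differences in the same direction. The RefSeq promoter table (GRCm38.p6) matched 1 of the 4 members, Ly6c1, with 2 start sites. Ly6a, Ly6d and Ly6e were not matched. The 250 bases before the first Ly6c1 start, at chr15:75048838-75049087 on the minus strand of GRCm38.p6, are printed 5′ to 3′ with the longest run of bases that is also found before the Ly6g start in capitals.
Ly6c1: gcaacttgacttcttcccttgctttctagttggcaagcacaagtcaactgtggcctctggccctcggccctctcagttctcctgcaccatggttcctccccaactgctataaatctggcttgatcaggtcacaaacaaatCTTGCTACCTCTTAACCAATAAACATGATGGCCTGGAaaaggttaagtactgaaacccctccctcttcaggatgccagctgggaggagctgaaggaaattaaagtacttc
The shared run is 37 bases long, from base −110 to base −74 counted from the start. In an alignment of the windows, 175 of 204 bases aligned without gaps (85.8%) were identical between Ly6c1 and Ly6g, and 171 of 210 (81.4%) between Ly6c1 and Ly6c2. Bases in gaps were not counted in these shares. The differences between the arrays were 1.17 for Ly6c1 and 0.08 for Ly6g. The interferon gamma activated site TTCNNNGAA, which reads the same on both strands, had 0 matches in these windows of Ly6c1, Ly6c2 and Ly6g, and it was found in 7.02% of 32851 promoters. The interferon-stimulated response element, searched on both strands, also had 0 matches in them and was found in 2.98% of promoters. The lack of a match says only that these letters are not in these windows.

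The enzymes that make the GPI anchor were listed because Ly6 proteins are fixed to the membrane by it. Of 24 measured genes for building, attaching and trimming the anchor, 1 passed 2-fold upwards and 1 downwards, and the median was −0.12, against −0.11 over all genes. Over all genes, 2.91% passed 2-fold upwards and 3.64% downwards. Mppe1, an enzyme that trims the anchor, was 2.10-fold higher, and Pign, which adds a side group to the first mannose, was 2.17-fold lower. Mppe1 was dim, with a log2 level of −3.83 in the wild type. With normexp 0 genes of the list passed 2-fold in either direction, and with the stricter filter 0 passed upwards and 1 downwards. Scaling to the E1A spots turned the list's median to 0.67, against 0.67 over all genes.

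Genes known to be induced by interferon were listed because Ly6a and Ly6e respond to it. Of 33 measured genes of this list, 12 (36.4%) passed 2-fold upwards, against 2.91% of all measured genes. Downwards 0 of the list passed, against 3.64%, and 30 of the list were above 0. The median was 0.85 with the 75th percentile, and 0.63 to 1.63 over the alternatives, and the summed level was 115 and 195. Ifi44 was 6.28-fold higher, the antiviral oligoadenylate synthetase Oas1a 5.94-fold and Ifit2, which binds viral RNA, 4.61-fold. Ifit2 was dim in the wild type (log2 level −3.78). Igtp (−0.27), Stat2 (−0.23) and Ifi35 (−0.21) of the same list lay below 0. Oas3, another oligoadenylate synthetase, stood above background in the knockout liver alone. The part of the interferon response in the members' differences was not tested.

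Several cell types of the liver or its blood carry Ly6 antigens, and their markers are given with the sum of the levels of all listed markers that have a probe, first in the wild type and then in the knockout liver. For endothelial cells, which carry Ly6a and Ly6c1, 17 of 18 markers were measured. Of these, 0 were at least 2-fold apart, the median was 0.04 and the summed level was 73.5 and 68.2. Among all measured genes, 2.91% passed 2-fold upwards and 3.64% downwards. With scaling to the E1A spots all 17 were above 0 and 4 were at least 2-fold higher, against 3536 of all 15385 genes. Individual endothelial markers reached 1.99-fold (Cd34), 1.91-fold (Lyve1) and 1.78-fold (Pecam1) higher.

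Among all measured genes, 2.91% passed 2-fold upwards and 3.64% downwards, and the counts in this paragraph stand beside these shares. For monocytes, the cells best known for Ly-6C, 8 of 11 markers were measured, 3 of them at least 2-fold higher. These were the fractalkine receptor Cx3cr1 (3.53-fold), the endotoxin co-receptor Cd14 (3.03-fold) and Plac8 (2.06-fold). The median of the list was 0.27: Itgam differed by −0.88, and Csf1r (−0.0016), Chil3 (0.10) and Ms4a4c (0.17) were close to 0. With normexp, 1 of the 8 passed 2-fold. The chemokine receptor Ccr2 stood above background in the knockout liver alone, F13a1 was on neither, and the summed level was 76.5 and 76.2. Of 9 measured markers of T and B lymphocytes, 1 was at least 2-fold higher (Ptprc, 2.29-fold), the median was 0.56 and the summed level was 12.6 and 11.0. The T cell markers Cd3e (−0.67) and Cd4 (−0.27) lay below 0. With normexp 0 of the 9 passed 2-fold and the median was 0.26. With the stricter filter 4 of these markers were measured, with a median of 0.10. Cd8a was not well above background on either array, while Ms4a1, Cd3g and Cd8b1 were on the knockout array only. Among 6 Kupffer cell markers, only the scavenger receptor Marco was at least 2-fold higher (3.14-fold), and the summed level was 68.9 and 86.7. Of 5 measured neutrophil markers, 3 were at least 2-fold lower (Retnlg, S100a9 and S100a8), against 3.64% of all measured genes. The list's median was −1.04 and its summed level was 92.8 and 65.9. With normexp 2 of the 5 passed 2-fold downwards. With scaling to the E1A spots 0 did, against 104 of all 15385 genes, and 2 of the 5 lay above 0.

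Markers of biliary and progenitor cells and of stellate cells and fibroblasts were also counted, beside the 2.91% of all measured genes that passed 2-fold upwards. Of 8 measured biliary and progenitor markers, 5 were at least 2-fold higher, led by Anxa13 (5.21-fold), Spp1 (2.64-fold) and Krt23 (2.54-fold). Anxa13 was dim in the wild type (log2 level −3.66), and the keratin Krt19 differed by 0.22. The list's median was 1.13 and its summed level was 3.76 and 9.24. With normexp 3 of the 8 passed 2-fold and the median was 0.62, and with the stricter filter 2 of the markers were measured, both past 2-fold. The epithelial markers Epcam and Muc1 were not well above background on either array, and Krt7 was on the knockout array only. Of 10 measured stellate cell and fibroblast markers, 5 were at least 2-fold higher, among them Col1a1 (3.19-fold), the receptor Pdgfra (3.06-fold) and Lum (2.79-fold). Reln (−0.74) and Des (−0.08) of the same list lay below 0. The list's median was 1.06 and its summed level was 48.0 and 71.4. With normexp 4 of the 10 passed 2-fold, with a median of 0.68. Of 5 mesothelial markers, only Msln was measured on both arrays, with a log2 difference of 0.72, and 3 others stood above background in the knockout liver alone.

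Markers of hepatocytes, skeletal muscle and adipocytes were listed as well. All 10 hepatocyte markers with a probe were measured on both arrays, with a median of −0.54 and a summed level of 2583 and 1799. Of these, 1 passed 2-fold upwards and 0 downwards, against 2.91% and 3.64% of all measured genes. Tat, an enzyme of tyrosine breakdown, was 2.06-fold higher, and Cps1 of the urea cycle also lay above 0 at 0.60. The list's median was −0.04 with quantile and −0.07 with loess normalization, and 0.24 with scaling to the E1A spots. Of 13 skeletal muscle markers, 9 stood above background in the wild type liver alone, and the summed level was 8.75 and 0.432. Cfd, an adipocyte product, was 33.6-fold lower in the knockout and the fatty acid carrier Fabp4 differed by 0.01, while Adipoq, Lep, Plin1 and Retn were not well above background on either array. The part of any of these cell types in the members' differences was not tested.

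**Figure D5:**
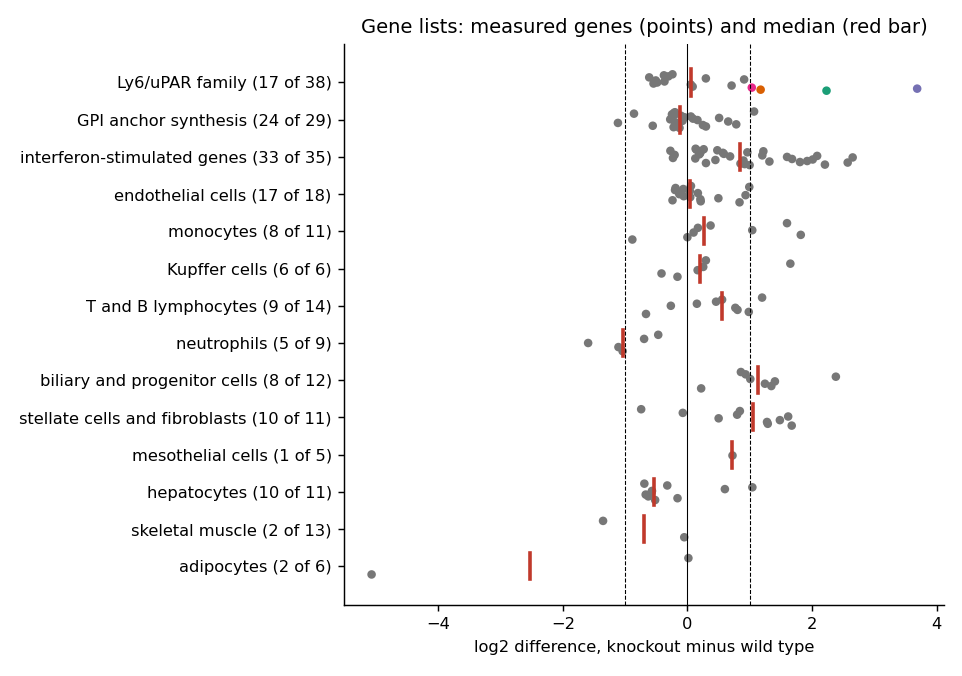
Log2 difference, knockout minus wild type, of the measured genes of each list, with 1 point per gene, a bar at the list's median and dashed lines at 2-fold. The medians lie near 0 for the GPI anchor (−0.12) and endothelial (0.04) lists and near or above 0.85 for the interferon, biliary and stellate lists.

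The genes closest to each member in difference were taken over the 2 arrays, by the size of the gap between log2 differences, among genes with a RefSeq symbol and a mean level above the median. Closest to Ly6d was Igfbp1, a liver-made binding protein of insulin-like growth factors, 12.8-fold higher. It was the only such gene within 0.1 of Ly6d, and Gsta1 (15.7-fold) and Ddit4 (10.5-fold) came next. Closest to Ly6a were Blnk, a B cell adaptor, 4.66-fold higher, then Gm10639 and Cyb5r1, with 4 genes within 0.1. For Ly6c1, with 29 genes within 0.1, they were Serpina7, Slc3a2 and Rassf1, and for Ly6e, with 39, they were Hjv, H3c15 and Ifi204. A single difference between 2 arrays was compared, so closeness here says nothing beyond its size.

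Dnm1l, the targeted gene, had 1 measured probe, which was 1.15-fold lower on the knockout array (log2 difference −0.21). The deleted part of the gene is not given in the labels, so this probe does not check the label. The arrays held 39429 non-control probes, of which 50.5% stood well above background in the wild type and 57.1% in the knockout.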

How the data were processed

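Liver RNA of 1 wild type and 1 Drp1 knockout sample was labelled with Cy3 and hybridised to 1-colour Agilent 4x44K arrays, per the labels' protocols and the series' design text. The deposited scanner files hold fluorescence intensity per spot, and Agilent Feature Extraction had subtracted the background and detrended the processed signal across the slide, per the file headers. The submitters' processing notes give version 9.5.1.1 of that program and the file headers module version 10.7.1.1. Intensity on a linear scale is also what the deposited value table holds. Its 2 columns have equal sorted values at all but 221 ranks (greatest gap 0.0417%), a median of 45.9 each, and Spearman correlations of 0.9999 and 1.000 with the scanner values of the same array over 39429 probes. It was used as an alternative.

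Each array had 44397 spots, of which 1377 control spots and 183 (wild type) or 190 (knockout) outlier spots were left out. Signals were divided by the array's 75th percentile and log2-transformed, and copies of a probe were averaged. A probe counted as measured where 50% or more of its usable spots stood well above background, and a gene as the mean over probes measured on both arrays. The lowest log2 levels well above background were −4.08 (wild type) and −4.76 (knockout). Probes were named through RefSeq (GRCm38.p6): 26761 by accession, 4453 by symbol or synonym, and 8215 kept the name in the file. Promoter sequences are also from RefSeq. Positions of probes are those of the files (mm9) and were not converted.

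With 1 array per group no test was made, and precision is limited by the number of arrays. The members and gene lists were chosen with earlier results of these data known. Named by rule are the members, family genes well above background on an array, and Dnm1l. So are up to 3 measured genes with the greatest difference in each other list and the 3 nearest to each member in difference. Beside them, some other measured genes of the lists, with smaller or opposite differences, and genes not well above background on an array are named. Alternatives were quantile and loess normalization, centring on the median, normexp background correction (offset 50), no filter and a stricter filter on dim probes, the brightest probe per gene, the value table and scaling to 8 E1A spike-in probes. Some genes of the lists are not reported here by name. The scripts were tested on simulated data. R 4.3.3 with limma 3.58.1 and Python 3.11.15 with pandas 2.3.3 were used.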

Additional observations from a re-analysis of the deposited data

How the results depend on the processing

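No paired analysis was possible because each group has 1 array. Values are log2 differences, knockout minus wild type, or counts of genes at least 2-fold apart. All 4 members kept their direction under the 9 alternatives, and only Ly6c1 crossed 2-fold, at 0.94 with normexp. Ly6d moved from 3.69 to 3.87 with quantile, 3.89 with loess and 3.85 with the value table, and Ly6e from 1.03 to 1.31 with each of these. Scaling to the E1A spike-in spots gave 3.01 for Ly6a, 1.96 for Ly6c1, 4.47 for Ly6d and 1.81 for Ly6e. The counts of higher (447) and lower (560) genes became 211 and 301 with normexp, 1574 and 1766 with no filter, 210 and 300 with the stricter filter, and 3536 and 104 with the E1A spots. The family median (0.05) was −0.24 with normexp, −0.16 with no filter, 0.66 with the stricter filter and 0.84 with the E1A spots. The medians of the GPI anchor list (−0.12) and the interferon list (0.85) became 0.67 and 1.63 with the E1A spots, and the interferon list 0.63 with the stricter filter. The filters change which genes enter and the E1A scaling adds a constant, since the 8 spike-in probes had a median of −0.78 (−0.99 to −0.74) on the 75th percentile scale. For the other moved values the cause was not tested. The median of all genes also shifted by 0.11 with loess and by −0.20 with no filter.

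Signal over background limits the dim Ly6c1 probe and the family genes below or near background, for which only bounds or no values are given. Each member probe is 1 spot on 1 array per group, so the spread between mice is unknown, and a difference between these livers is not shown to be one between genotypes.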

Other observations

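1 probe inside the Ly6 cluster passed 2-fold downwards, among those well above background on at least 1 array. It was chosen after its values were seen. The probe is annotated in the scanner files to an unnamed transcript, NAP101442-1, and lies at chr15:74817388-74817449 (mm9, minus strand) between the probes of Ly6i and Ly6a. Its signal was 314 on the wild type array (level 0.681) and 25.8 on the knockout array (level 0.0358), where it was not well above background. By its bound the knockout level was at least 18.5-fold lower, while Ly6a on one side was 4.69-fold higher and Ly6i on the other, well above background on the knockout array only, at least 1.07-fold higher. The probe is 1 spot.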
